A study of Homo sapiens with 3 samples.

Results

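The DEAD and DEAH box RNA helicase genes were examined for binding of the circadian activator BMAL1 and of the MYC-associated factor MAX in MDA-MB-231 cells. Members were taken by name alone, as the protein-coding genes of the GENCODE annotation on hg19 whose symbol is DDX or DHX followed by a digit, and they numbered 54 of 20162 protein-coding genes. RIGI, formerly DDX58, carries its newer symbol in this annotation and is therefore not a member. These cells are a long-established line from a triple-negative human breast tumour, and they were fixed untreated at 80% confluence (formaldehyde at 1%, 10 min). The data were 1 library immunoprecipitated with anti-BMAL1, 1 with anti-MAX (4 µg of antibody each) and 1 input library shared by both. With 1 library per antibody no spread between replicates exists, so values describe these libraries and no test between conditions was possible. The BMAL1 list held 756 peaks from 13866783 tags and the MAX list 13650 peaks from 11545865 tags.

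RNA helicases of this superfamily use ATP to open RNA duplexes or to strip proteins from RNA, and the family takes its name from the amino acids Asp-Glu-Ala-Asp or Asp-Glu-Ala-His in its ATP-binding core. They drive the steps of the spliceosome, the processing of ribosomal RNA in the nucleolus, mRNA export, translation initiation and RNA decay. MAX is the obligate partner of MYC and of the MXD and MNT repressors, and its dimers bind the E-box CACGTG. BMAL1 with CLOCK binds the same element. Genes of ribosome assembly are widely described targets of MYC and MAX.

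A gene was counted as bound at its promoter when the summit of a listed peak lay within 1 kb of any of its annotated transcription start sites (TSSs). By this rule 34 of the 54 helicase genes (63.0%) had a MAX peak, against 36.3% of all protein-coding genes (7310 of 20162). The Wilson 95% interval of the members' share was 49.6% to 74.6%. It treats the genes as independent draws, although the members are a complete set and include paralogues. It does not measure a spread between libraries. A BMAL1 peak was found at 3 helicase genes (5.56%), DDX3X, DHX35 and DDX5, against 1.85% of all protein-coding genes (372). At all 3 the BMAL1 peak overlapped a MAX peak, as it did at 93% of all genes with a BMAL1 peak (346 of 372), or 1.72% of all protein-coding genes. Helicase genes also had more annotated TSSs, with a median of 9.5 against 5, and 92.6% of them had a CpG-rich start site against 67.7% of all genes. CpG-rich means here at least 50% G and C, and an observed over expected CpG ratio of at least 0.6, in the 500 bp centred on the canonical TSS. With the single canonical TSS of each gene, 33 helicase genes (61.1%) and 32.3% of all genes had a MAX peak. Among genes with a CpG-rich start site, 34 of 50 helicase genes (68.0%) and 49.1% of all genes did. How far start-site number and CpG content enter the difference was otherwise not tested. With genes that share a promoter left out the shares were 64.9% and 29.9%. None of the 4 helicase genes without a CpG-rich start site had a MAX peak, and 10.7% of all such genes (687 of 6413) had one, so a count of 0 in 4 is near the background.

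The bases under the peaks are shown for the helicase genes in which a canonical E-box lay within 100 bp of the strongest MAX summit or of a BMAL1 summit, and for DDX21, which ranked among the 5 highest in MAX enrichment without one. The E-box is in capitals, and at DDX21 the capital marks the summit base. The plus strand of hg19 is shown, 61 bases long or 30 where an annotated untranslated region was touched. Sequences were planned for the members with a BMAL1 peak and for the 5 highest in MAX enrichment. DDX42 and DHX40 were added after their values were seen, to complete the set.

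DHX34 (chr19:47852294-47852354): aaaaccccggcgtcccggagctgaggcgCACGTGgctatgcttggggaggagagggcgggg
DDX31 (chr9:135545375-135545404): ggcccgggacccCACGTGggacgcgcgagg
DHX37 (chr12:125473619-125473648): cgaaacccagccCACGTGggttcccagacc
DDX59 (chr1:200639630-200639690): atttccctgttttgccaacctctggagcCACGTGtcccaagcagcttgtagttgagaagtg
DHX35 (chr20:37590775-37590835): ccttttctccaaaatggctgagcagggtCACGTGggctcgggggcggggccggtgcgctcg
DHX40 (chr17:57642793-57642853): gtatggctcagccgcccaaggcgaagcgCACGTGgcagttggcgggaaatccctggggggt
DDX42 (chr17:61851197-61851226): gctgtgtgggacCACGTGgccagaggcaag
DDX3X (chrX:41192795-41192824): gacacctacggtCACGTGgcctgccgccct
DDX5 (chr17:62502769-62502798): gcctggcgttgtCACGTGgctgtaccaccc
DDX21 (chr10:70715847-70715876): cctgtgcttcctgcTtcccccggaagtgcc

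The share of bound genes was counted for each role of the helicases. Of the 16 members that act in ribosome assembly, 14 (87.5%) had a MAX promoter peak, and of the 12 that act in pre-mRNA splicing, 9 (75%) did. In translation and cytoplasmic mRNA handling 4 of 7 members had one, and in mRNA export 2 of 4. Both members grouped under genome upkeep and transcription, DHX9 and DDX11, and 2 of 4 less characterised members also had one. A MAX peak was listed at 1 of 4 germ line members, at 0 of 2 mitochondrial members and at 0 of 3 members of innate immune sensing. With 2 to 4 genes each, these groups cannot be told apart from the share of all genes. The lists of role are small and were drawn up from general knowledge with earlier results of these data known. These counts are therefore a description, to be read beside the 36.3% of all genes. Every member of ribosome assembly, splicing, translation and the mitochondrial group had a CpG-rich start site. Of all genes with such a start site, 49.1% had a MAX peak. The plot of shares by role shows these counts together.

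**Figure D1:**
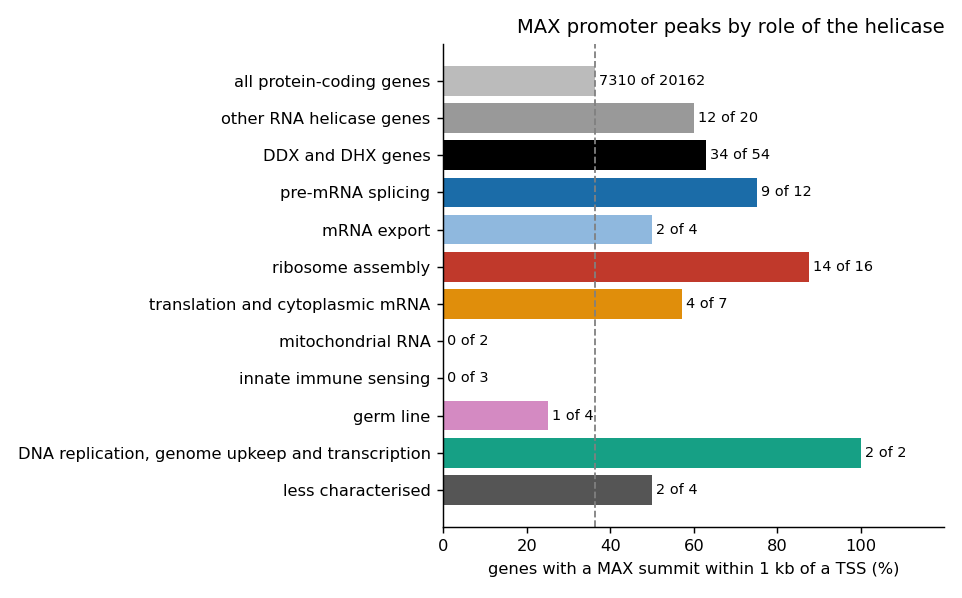
Share of genes (%) with a MAX summit within 1 kb of a TSS, for all protein-coding genes, other RNA helicase genes, all DDX and DHX genes and each role; numbers beside the bars are genes with a peak of all genes, and the dashed line is the share of all protein-coding genes. Ribosome assembly (14 of 16) and splicing (9 of 12) lie above the line of 36.3%. Mitochondrial RNA (0 of 2) and innate immune sensing (0 of 3) have no bar, and are too small to be told apart from that line. Among all genes with a CpG-rich start site the share is 49.1%.

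Over the 34 genes with a MAX peak, the strongest peak had a median fold enrichment over input of 12.6 (quartiles 9.79 and 18.5, range 6.53 to 29.7). Fold enrichment is the pileup of fragments at the summit divided by a background, as written by the authors' peak caller. The background is that of the local input or, where this is lower, the genome-wide expectation of 1.28 fragments for MAX. At DDX18, DHX15, DDX19A and DDX17 the background stood at this floor. Over the 7310 protein-coding genes with a MAX peak the median was 10.8 (quartiles 8.57 and 13.9). Of the 34, 24 lay above this median, 14 above the upper quartile and 3 below the lower quartile of all genes. The binomial 95% interval of the members' median, which also treats the genes as independent draws, was 10.9 to 16.4. The median pileup was 24.5 fragments against 19 over all genes, and the median background 1.99 against 1.75. With so few fragments the order within the family was loose: by the exact Poisson 95% interval of the pileup, which covers counting error only, all 33 pairs of neighbours in the order overlapped. DHX34 stood highest, and its lower bound of 21.8-fold was above the upper bound of 22 other members. Bounds of fold enrichment divide the pileup interval by a background taken as exact, so the error of the background is not covered.

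**Figure D2:**
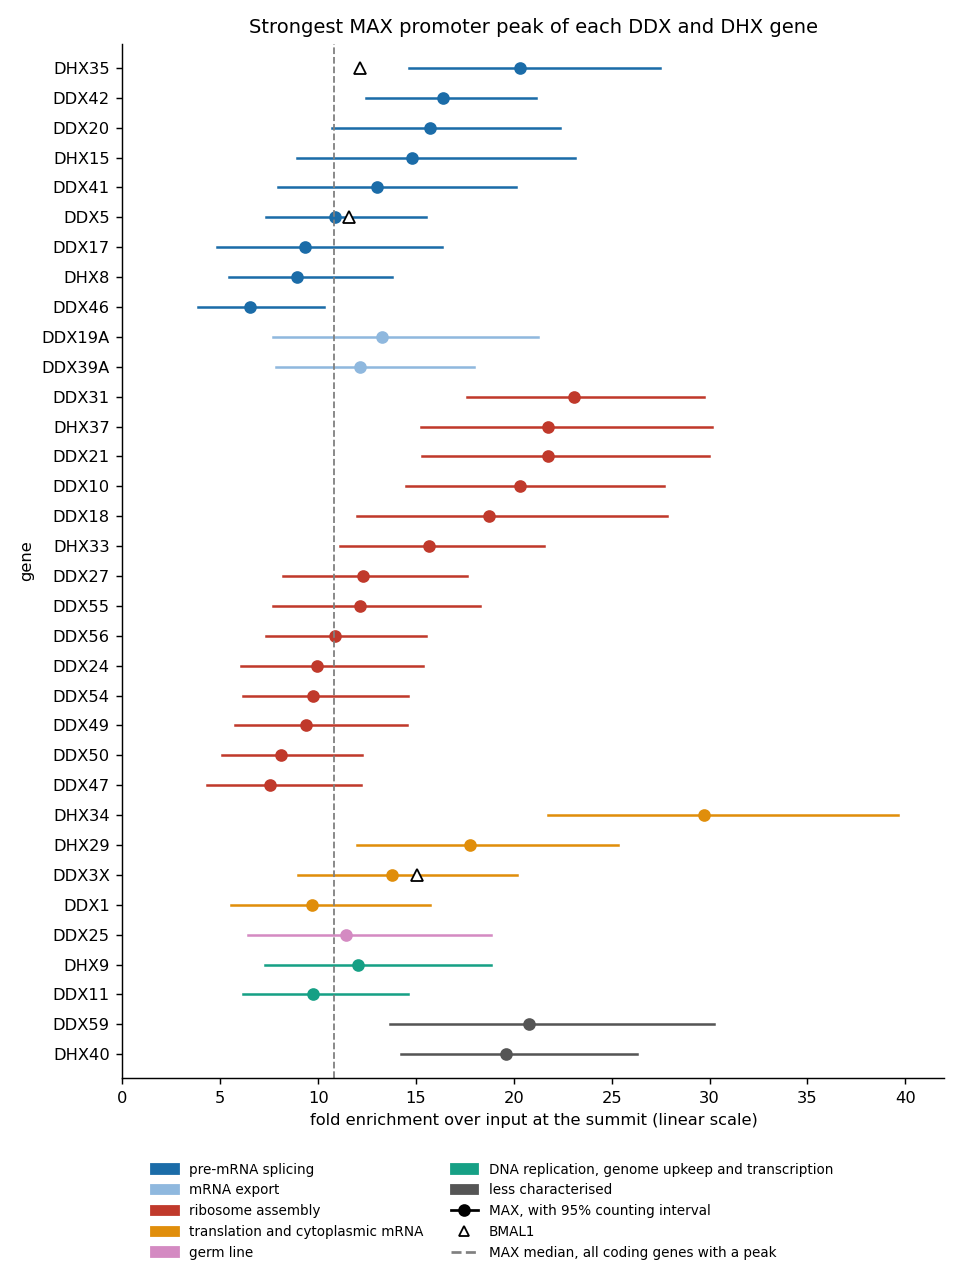
Fold enrichment over input (linear axis) at the strongest MAX promoter summit of each of the 34 genes, coloured by role, with the exact Poisson 95% interval of the pileup as a line; open triangles give BMAL1 at DHX35, DDX5 and DDX3X, and the dashed line the median of 10.8 over all protein-coding genes with a MAX peak. DHX34 is highest at 29.7, and ribosome assembly members spread from 7.52 to 23.1.

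Among the members of ribosome assembly, MAX enrichment was highest at DDX31, DHX37, DDX21 and DDX10. DDX31 is a nucleolar helicase, and its MAX peak spanned 834 bp (chromosome 9, 135544836 to 135545669) with a pileup of 60 fragments, the largest of the family (interval 45.8 to 77.2). Its fold enrichment was 23.1 and its -log10 p 59.5, with the summit 1 bp upstream of the TSS. The peak was shared with GTF3C4, a subunit gene of transcription factor IIIC whose TSS also lay within 1 kb, and a weaker MAX peak (9.33-fold) had its summit 837 bp upstream of another DDX31 TSS. DHX37, which acts on the U3 snoRNA during assembly of the small ribosomal subunit, had a pileup of 36 (25.2 to 49.8), a 21.8-fold enrichment and a -log10 p of 35.8, with the summit 60 bp downstream of the TSS (chromosome 12, 125473225 to 125473803). DDX21, a nucleolar helicase of rRNA processing, had the longest peak of the family, 1599 bp (chromosome 10, 70715535 to 70717133), with a pileup of 37 (26.1 to 51.0), a -log10 p of 36.6 and 21.7-fold enrichment 30 bp upstream of the TSS. No E-box lay within 100 bp of its summit, although the peak held 2, the nearer one 513.5 bp away. DDX10, of the small-subunit pathway, had a pileup of 40 (28.6 to 54.5), a -log10 p of 38.3 and 20.3-fold enrichment 73 bp upstream of the TSS (chromosome 11, 108535431 to 108536078), with no E-box anywhere in the peak.

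The other 10 bound members of this group covered a wide range. DDX18 had a fold enrichment of 18.7 with a pileup of 24 (15.4 to 35.7) and a -log10 p of 23.02, 107 bp upstream of the TSS (chromosome 2, 118571941 to 118572671). DHX33, which associates with rDNA, had 15.7. DDX27, DDX55 and DDX56 followed at 12.3, 12.2 and 10.9. DDX24, DDX54 and DDX49 had 9.95, 9.73 and 9.40, and DDX50 and DDX47 were lowest at 8.09 and 7.52. The summits of 12 of the 14 lay within 100 bp of a TSS, at a median distance of 30 bp. DDX21 and DDX50, paralogous nucleolar helicases, lie in tandem with canonical TSSs 54.9 kb apart, and each had a MAX peak of its own. Their intervals of fold enrichment, with the background taken as exact, did not overlap (15.3 to 30.0 for DDX21 and 5.07 to 12.2 for DDX50). Their pileup intervals did overlap (26.1 to 51.0 and 13.8 to 33.3). DDX51 and DDX52 were the 2 members of the group without a promoter peak. The nearest MAX summit lay 45305 bp from a DDX51 TSS and 11688 bp from a DDX52 TSS.

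Among the splicing helicases DHX35, DDX42, DDX20 and DHX15 had the highest MAX enrichment. DHX35, a component of the catalytic spliceosome, had a pileup of 42 (30.3 to 56.8), a -log10 p of 40.1 and 20.3-fold enrichment 136 bp upstream of the TSS (chromosome 20, 37590532 to 37591254). DDX42, which associates with the SF3B complex, had the second largest pileup of the family, 58 (44.04 to 74.98), but a background of 3.55, also the highest of the family, and its fold enrichment was 16.4. Its summit lay 1 bp upstream of a TSS, and the peak was shared with CCDC47. DDX20, the Gemin3 subunit of the SMN complex, had 15.7 and DHX15, which takes the spliceosome apart, 14.8. DDX41 had 13.0. The paralogues DDX5 and DDX17, which act in splicing and as transcriptional coregulators, had 10.9 and 9.35. DHX8, which releases the spliced mRNA, had 8.91, and DDX46, which acts in the recognition of the branch point, 6.53, the lowest of the family. A second MAX peak of DHX8 (8.30-fold) lay at an alternative TSS within 1 kb of a TSS of ETV4, far from the main start site. DDX23, DHX16 and DHX38, which drive successive rearrangements of the spliceosome, had no MAX promoter peak, and the nearest MAX summits lay 17975, 9822 and 84901 bp from their TSSs.

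In translation and cytoplasmic mRNA handling, DHX34 had the highest MAX enrichment of the whole family. DHX34 takes part in nonsense-mediated decay, and its peak of 1204 bp (chromosome 19, 47851788 to 47852991) had a pileup of 46 (33.7 to 61.4) and was enriched 29.7-fold, at a -log10 p of 51.15. It exceeded 99.3% of the MAX peaks at protein-coding promoters. The summit lay 271 bp upstream of the TSS and the E-box 23.5 bp from the summit. DHX29, which helps ribosomes to scan structured leaders, had 17.8-fold enrichment with a pileup of 30 (20.2 to 42.8) and a -log10 p of 27.6, 137 bp upstream of the TSS (chromosome 5, 54603205 to 54604111). The peak held no E-box and was shared with MTREX, the helicase gene of the nuclear exosome, which lies on the other side of the same promoter. DDX3X, an activator of translation of structured leaders, had 13.8 and DDX1, of the tRNA ligase complex, 9.67. DDX6, a P-body component, DHX36, which unwinds G-quadruplexes, and DDX3Y had no peak, and the nearest MAX summits to DDX6 and DHX36 were 96765 and 156485 bp away. Neither list held any peak on chromosome Y.

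The remaining bound members were few. DDX19A and DDX39A, both of mRNA export, had 13.3 and 12.2, while their paralogues DDX19B and DDX39B had no promoter peak. DDX19A and DDX19B lie in tandem 47.7 kb apart, and the nearest MAX summit to DDX19B was the one at DDX19A, 47574 bp away. For DDX39B it was 18075 bp away. DHX9, or RNA helicase A, had 12.1 and DDX11, a helicase of sister chromatid cohesion, 9.73. The value of DDX11 is uncertain because reads can be shared with its near-identical copy DDX12P, which had a MAX peak of 8.88 at its own start. Of the less characterised members, DDX59 had 20.8 with a pileup of 27 (17.8 to 39.3) and a -log10 p of 26.8, 573 bp upstream of the TSS (chromosome 1, 200639241 to 200639901). A second DDX59 peak of 18.7 lay in an intron 189 bp downstream of a TSS. DHX40 had 19.6 with a pileup of 44 (31.97 to 59.1) and a -log10 p of 41.2, 65 bp upstream of the TSS (chromosome 17, 57642567 to 57643216). DHX32 and DHX57 had no peak, with the nearest MAX summits 135391 and 24749 bp away. DDX25, the only bound germ line member, had 11.4, and this peak lay 154 bp from an upstream TSS and was shared with PUS3. With the canonical TSS alone DDX25 was no longer counted. DDX4 (VASA), DDX43 and DDX53 of the germ line, DDX28 and DHX30 of the mitochondrial ribosome, and DHX58, DDX60 and DDX60L of antiviral sensing had no MAX promoter peak. The nearest MAX summits lay 25529, 44614 and 667592 bp from DDX4, DDX43 and DDX53, 61431 and 13794 bp from DDX28 and DHX30, and 136200, 239734 and 20831 bp from DHX58, DDX60 and DDX60L.

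All 34 bound genes kept a summit when the limit was narrowed to 300 bp, and none was added at 5 kb, whereas the share of all protein-coding genes moved from 29.0% to 41.6% between these limits. The promoter summits closest to the limit of 1 kb were those of DDX39A (843 bp) and the weaker peak of DDX31 (837 bp). The first outside it lay 1114 bp from the alternative DHX8 TSS near ETV4. For the 19 unbound genes on chromosomes with listed peaks, the nearest MAX summit was 9822 to 667592 bp away (median 45305). Of the 20 unbound genes 16 had a CpG-rich start site, and 3 (DDX4, DHX32 and DHX58) held an E-box in the 500 bp around the canonical TSS. For these 19 genes, lack of a listed peak means only that none passed the peak caller's threshold at this depth. DDX3Y, on chromosome Y where neither list held a peak, is kept among the 20 unbound genes. Whether its locus is present in these cells was not checked.

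Summits of the bound members lay close to the start of transcription. The median distance of the strongest MAX summit from a TSS was 69 bp against 118 bp over all protein-coding genes, and 23 of 34 (67.6%) lay within 100 bp against 46.0%. Distances were taken to the nearest of all annotated TSSs, of which helicase genes had a median of 9.5 against 5. How far the larger number of TSSs enters this difference was not tested. Upstream of the TSS were 21 of 34 (61.8%), close to the 62.7% of all genes. By the transcripts of each member, 16 summits lay outside the gene, 10 in an untranslated region, 6 in an intron, 1 in a coding exon and 1 in a non-coding exon. For 9 of the 34 (26.5%) the strongest peak also lay within 1 kb of a TSS of another protein-coding gene, against 31.7% of all bound genes. The partners were GTF3C4, MTREX, CCDC47, INKA2, PUS3, CEP95, IFI27L1, RITA1 and COPE, and at these promoters the peak cannot be assigned to a single gene. More than 1 MAX promoter peak was found at 7 of the 34 (20.6%), against 16.4% of all bound genes.

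**Figure D3:**
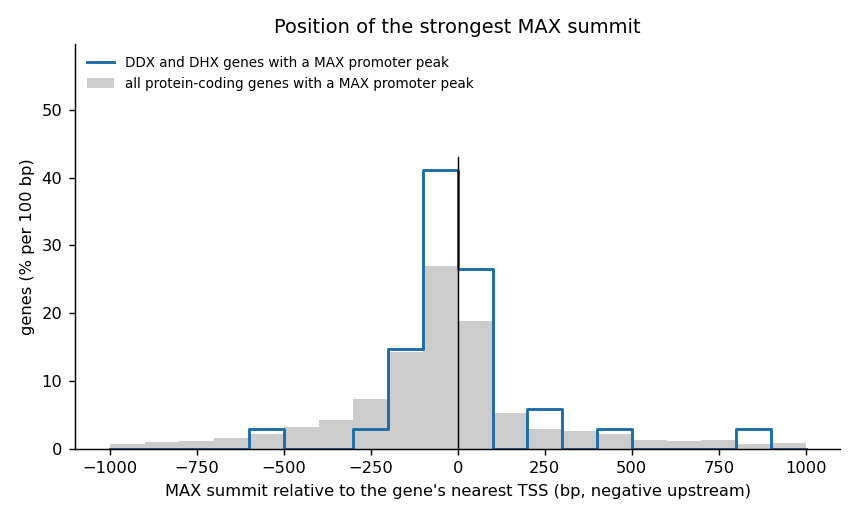
Percent of genes per 100 bp by the position of the strongest MAX summit relative to the nearest TSS of the gene (bp, negative upstream), for all protein-coding genes with a MAX promoter peak (grey bars) and the 34 DDX and DHX genes (blue line). The blue line peaks in the 100 bp upstream of the TSS, with 41.2% of the 34 genes against 27.0% of all, and 23 of 34 lie within 100 bp on either side. Helicase genes have more annotated TSSs than all protein-coding genes.

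A canonical E-box (CACGTG, a palindrome) lay in the 200 bp centred on the strongest MAX summit of 8 of the 34 genes (23.5%), near the background of 20.9% of all protein-coding genes with a MAX peak. The 8 were DHX34, DDX31, DHX37, DDX59, DHX35, DHX40, DDX42 and DDX3X. Their fold enrichments ran from 13.8 to 29.7 with a median of 20.5, and those of the 26 members without the element from 6.53 to 21.7 with a median of 11.7. Over all protein-coding genes the medians were 13.4 with and 10.2 without the element. In the order of fold enrichment from DHX34 down to DHX40, DDX21 and DDX10 were the members without one. In the sequences printed above, the E-boxes of DDX31 and DHX37 stood between cc and gg. When the whole of the strongest peak was searched, 14 of 34 members held CACGTG (41.2%) against 30.2% of all genes, with DDX18, DDX21, DDX39A, DDX5, DDX54 and DHX33 added.

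**Figure D4:**
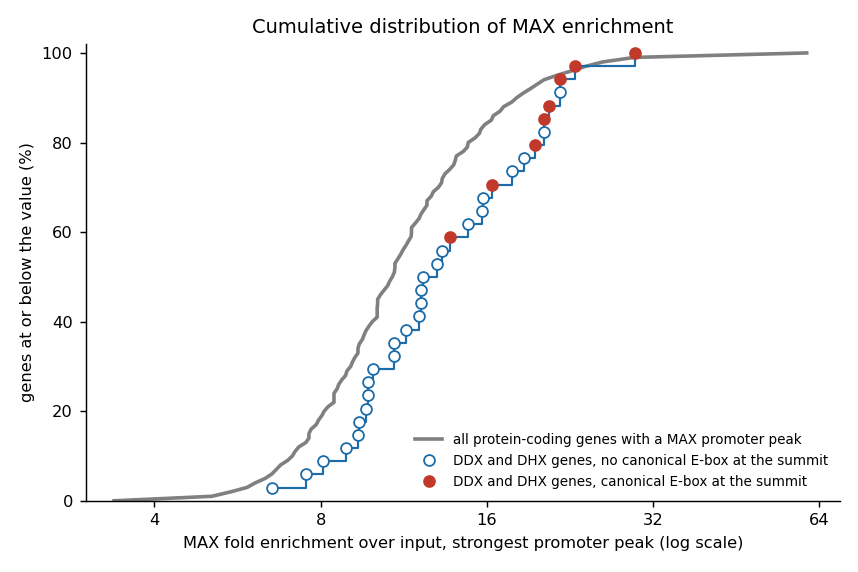
Percent of genes at or below each MAX fold enrichment (log axis) for all protein-coding genes with a MAX promoter peak (grey line) and the 34 DDX and DHX genes (points), filled red where a canonical E-box lay in the 200 bp at the summit. The red points start at 13.8 and include the highest value of 29.7.

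Other short elements were counted in the same windows on both strands, and a match is a description of the letters only. The variant CACGCG (or CGCGTG), which MYC and MAX dimers can also bind, occurred at 12 of 34 members (35.3%) against 19.7% of all bound genes. In the 500 bp around the canonical TSS of genes bound or not, it occurred at 25.9% of members against 21.6% of all genes. Among CpG-rich start sites it occurred in these 500 bp windows at 28% against 29.9%. These windows and genes differ from those at the summits, where the share among CpG-rich genes was not counted. With CACGTG or this variant together 17 of 34 summits (50.0%) were reached against 37.5%. The E'-box CACGTT (or AACGTG) occurred at 0 of 34 summits against 6.44%, and CACATG (or CATGTG) at 3 (8.82%) against 8.13%. The ETS core CCGGAA (or TTCCGG) occurred at 16 of 34 summits (47.1%) against 22.3%. In the 500 bp around the canonical TSS of all 54 members, bound or not, it occurred at 34 (63.0%) against 28.7% of all genes. Among genes with a CpG-rich start site, a subset added for the motif counts after their values were seen, it occurred at 31 of 50 members (62.0%) against 37.0% of all genes. The GC box GGGCGG (or CCGCCC) at 18 of 34 (52.9% against 52.2%) and CCAAT (or ATTGG) at 10 (29.4% against 24.0%) were near the share of all bound genes. The NRF1 core GCATGCGC (or GCGCATGC) was found at 3 members, DDX10, DDX27 and DDX41 (8.82% against 3.64%), and the YY1 core AAGATGGC (or GCCATCTT) at 1, DDX47 (2.94% against 3.28%). Matches of different elements may overlap one another. In the 500 bp windows CACGTG occurred at 12 of 54 members (22.2%) against 11.0% of all genes, and among CpG-rich start sites at 20% against 13.0% of all genes. Of the 12 members, 9 had a MAX peak (75%), against 25 of the other 42 (59.5%). The same contrast was seen over all protein-coding genes, at 53.8% with the element and 34.6% without it.

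BMAL1 and MAX met at DDX3X, DHX35 and DDX5. At DDX3X (chromosome X), the BMAL1 peak from 41192618 to 41193029 had a pileup of 32 fragments (interval 21.9 to 45.2) and was enriched 15.03-fold, at a -log10 p of 27.01. It lay wholly inside the MAX peak (41192067 to 41193181, 13.8-fold, pileup 26, 16.98 to 38.1). The summits were 54 bp apart, both in an untranslated region downstream of an annotated TSS at 41192651. The canonical TSS of DDX3X, at 41193415, lay further downstream than both summits. The E-box at 41192807 to 41192812 was 26.5 bp away from the summit of BMAL1 and 80.5 bp away from that of MAX. A weaker MAX peak of DDX3X (6.77-fold), with its summit at 41193530 downstream of the canonical TSS, overlapped no BMAL1 peak.

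At DHX35 the BMAL1 peak from 37590610 to 37591077 of chromosome 20 had a pileup of 30 (20.2 to 42.8) and was enriched 12.2-fold, at a -log10 p of 22.8. It also lay inside the MAX peak. The summits were 17 bp apart, upstream of the TSS. Both peaks held 2 E-boxes, the first at 37590803 to 37590808, centred 0.5 bp from the summit of MAX and 17.5 bp from that of BMAL1, and the other at 37590855 to 37590860, where the distances were 51.5 and 34.5 bp. The promoter is shared with the divergent non-coding gene DHX35-DT.

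At DDX5 the BMAL1 peak from 62502588 to 62502962 of chromosome 17 had a pileup of 23 (14.6 to 34.5), was enriched 11.6-fold at a -log10 p of 17.5, and lay inside a MAX peak of 1086 bp (62502372 to 62503457, 10.9-fold, pileup 30, 20.2 to 42.8). Here the summits were 175 bp apart. The single E-box, at 62502781 to 62502786, was 38.5 bp away from the summit of BMAL1 but 213.5 bp away from that of MAX. Both the MAX and the BMAL1 summit also lay within 1 kb of a TSS of the divergent gene CEP95. When each peak was given only to the nearest protein-coding gene, DDX5 kept the BMAL1 peak and lost the MAX peak. All 3 BMAL1 summits had an E-box within 100 bp, as did 78.8% of all protein-coding genes with a BMAL1 peak (293 of 372). Their BMAL1 fold enrichments exceeded 72.9%, 56.5% and 51.1% of BMAL1 peaks at protein-coding promoters, for DDX3X, DHX35 and DDX5. BMAL1 and MAX values are given side by side, since depth and duplicate handling differed between the libraries. For every other member on a chromosome with listed peaks, the nearest BMAL1 summit was at least 11656 bp away. On the strand printed above, the E-box nearest the BMAL1 summit was preceded by gt at DDX3X, DHX35 and DDX5. Other bases preceded the E-boxes of DHX34, DDX31, DHX37, DDX59, DHX40 and DDX42. The bases that followed did not separate the genes, with gc at DDX3X and DDX5 and also at DHX34, DHX40 and DDX42. The other E-box of DHX35 was not printed. This flank was seen only after the sequences were read out and was not tested. Its share over all bound promoters was not counted.

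**Figure D5:**
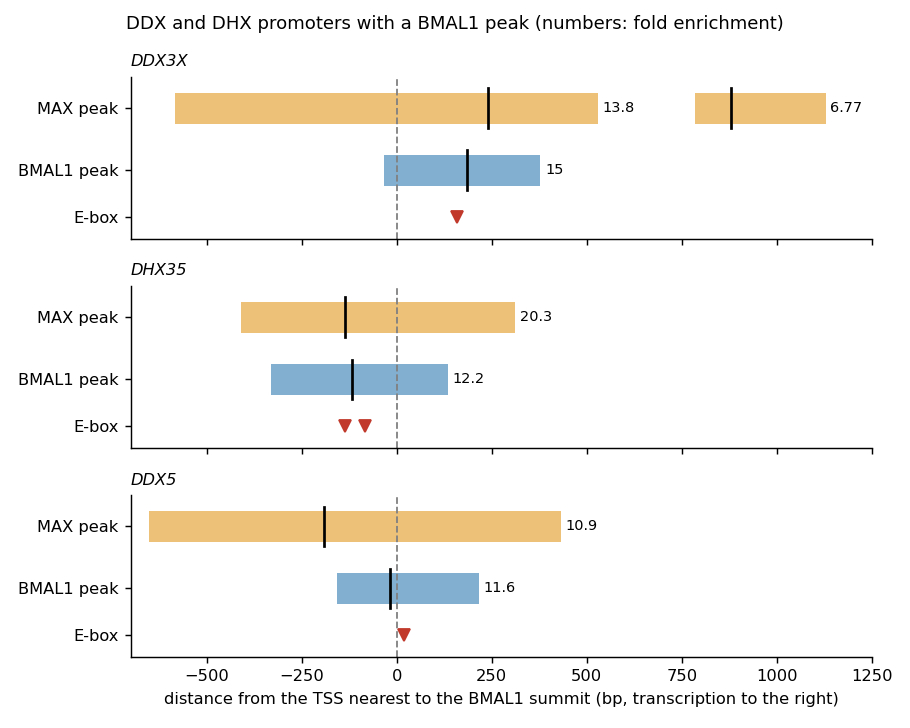
MAX peaks (orange) and BMAL1 peaks (blue) at the DDX3X, DHX35 and DDX5 promoters, as distance (bp) from the TSS nearest to the BMAL1 summit; black ticks are summits, red triangles canonical E-boxes, and numbers the fold enrichment over input. Each BMAL1 peak lies within a MAX peak, and an E-box lies within 38.5 bp of each BMAL1 summit.

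A further 20 RNA helicase genes that carry other symbols were listed for comparison, among them the EIF4A genes, the RIG-I-like receptors and the UPF1-like and SKI2-like helicases. Of these 12 (60.0%) had a MAX promoter peak, with a median fold enrichment of 11.3, and 1 had a BMAL1 peak. EIF4A1, the DEAD box subunit of the cap-binding complex, was highest at 24.0 with a pileup of 63 fragments, carried an E-box at the summit and was the gene with the BMAL1 peak. MTREX had 17.8, from the promoter shared with DHX29, and ZNFX1 17.2. MOV10, ASCC3, SNRNP200, RIGI, SKIC2, MOV10L1, EIF4A3 and IFIH1 ranged from 13.7 down to 7.69. The RNA sensors RIGI (11.1) and IFIH1 (7.69) each had a MAX peak, unlike DHX58 and the DDX60 genes among the members. AQR, EIF4A2, HELZ, HELZ2, IGHMBP2, TDRD9, UPF1 and YTHDC2 had none.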

How the data were processed

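The authors aligned the reads to hg19 with BWA 0.6.2 and called peaks for each antibody against the shared input with MACS2 2.0.9, with tags extended to 300 bp. The headers of the deposited lists record a cutoff of 1e-05 on the p-value, while a stricter one (-log10 p of 8) is stated in the methods. The lists deposited by the authors give for every peak the summit pileup (a signal in fragments, not scaled to depth), the fold enrichment (its ratio to the local input background) and the -log10 p-value and -log10 q-value. At most 2 tags per position were kept for BMAL1 and 1 for MAX. Positions were checked against the GRCh37 sequence: 0 peaks ran past a chromosome end, and 0 lengths differed from end minus start plus 1.

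All listed peaks were used. Genes and TSSs came from GENCODE release 44 mapped to GRCh37, with chromosomes 1 to 22, X and Y. Each gene was described by its promoter peak of highest fold enrichment. The members and the lists of role were chosen with earlier results of these data known, and are described by counts and medians beside those of all protein-coding genes, without a set test. All members were named. Full values were given for members with a BMAL1 peak and for the 10 of highest MAX fold enrichment. Printed sequences were planned at 61 bases and cut to 30 where they met an untranslated region. Poisson intervals were exact at the 95% level. The pairing of peaks with genes and the E-box search were tested on simulated data. Sequences were read with pysam 0.24.0, tables handled with pandas 2.3.3 and numpy 2.4.6 in Python 3.11.15, intervals taken from scipy 1.17.1 and plots drawn with matplotlib 3.10.9. The value of 1 of the other RNA helicase genes is not reported here, though the gene is counted in their total.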

Additional observations from a re-analysis of the deposited data

How the results depend on the processing

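The number of helicase genes with a MAX promoter peak was 34 in the report and 29 to 34 under the 8 alternatives of window, TSS set, assignment and threshold. The excess of their share over that of all protein-coding genes was 26.7 percentage points in the report. Over 10 alternatives it ran from 18.9 points, among genes with a CpG-rich start site, to 34.9 points, when genes sharing a promoter were left out. At a -log10 p of at least 12, DDX1, DDX17, DDX25, DDX46 and DDX47 dropped out, and 53.7% of members remained against 23.4% of all genes. DDX3X, DHX35 and DDX5 kept their BMAL1 peaks under each of the 8 alternatives. Only the count of members with an E-box at the strongest MAX summit moved by more than 1.5 times, from 8 to 14 when the whole peak was searched and to 17 when CACGCG or CGCGTG was added. No paired analysis was possible because each antibody had 1 library. At the median pileup of 24.5 fragments, the counting error is wide enough that neighbouring members cannot be ordered.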

Other observations

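Beyond the protein-coding members, 46 pseudogenes and non-coding genes carry a DDX or DHX name. A MAX promoter peak was listed at 7 of them, and at 6 of these it was the peak of a member: DDX11-AS1, DDX19A-DT, DDX59-AS1, DHX33-DT, DHX35-DT and DHX9-AS1. The seventh was the pseudogene DDX12P. DHX35-DT was the one with a BMAL1 peak.

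Within the members' annotated gene bodies and more than 1 kb from their TSSs, 5 further MAX peaks and 0 BMAL1 peaks were listed. One lay in an intron of DDX46 with a fold enrichment of 13.3, higher than the 6.53 of its promoter peak, 20262 bp from the nearest TSS and with no E-box within 100 bp. The other 4 lay in introns of DHX8 with fold enrichments of 7.62 to 11.99, 1114 to 35015 bp from a DHX8 TSS. Their summits ran from 41608261 to 41657168 of chromosome 17, far from the canonical TSS of DHX8 at 41561343. The distance of 1114 bp was measured from the alternative TSS near ETV4. For all 5 peaks only TSSs of the member itself were used, and distances to TSSs of other genes were not measured. The peaks may therefore lie at the promoter of another gene and cannot be assigned to DDX46 or DHX8.

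Outside the limit of 1 kb, the closest MAX and BMAL1 summits to DDX52 lay 11688 and 11656 bp from its TSS.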
